A study of Mus musculus with 4 samples.

Results

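Meis and Prep proteins were profiled in the same embryonic tissue, and most of their binding sites do not coincide. The sites described here lie close together without touching. They are Prep peaks that overlap no Meis peak but have the centre of a Meis peak within 10 kb of their own centre, together with the Meis peaks in that window that overlap no Prep peak. In all, 332 of 9017 peaks met this definition, 184 of the 3331 Prep peaks and 148 of the 5686 Meis peaks. They were chosen by the positions of the peaks in both lists, so their distances are a description and carry no test.

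Trunks of wild-type mouse embryos of strain C57BL/6 were taken at embryonic day 11.5 and made into a cell suspension. Chromatin immunoprecipitation followed by sequencing (ChIP-seq), which maps where a protein sits on DNA, was done once with antibodies to Meis1/2 (K830, K844) and once with an antibody to Prep1/2 (N15 Santa Cruz). The antibodies are labelled as recognising more than 1 family member, so a peak cannot be given to Meis1 or Meis2, or to Prep1 or Prep2, while the Prep peaks carry the name Prep1 in the list. The trunk holds many cell types, and a Meis peak and a Prep peak in 1 locus need not come from the same cells. There was 1 library per antibody. No spread between embryos could be measured, and differences between classes of peaks are given with no p-value. The input library of each experiment was not analysed here.

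Meis and Prep belong to the TALE class of homeodomain proteins, named after an extra loop of amino acids in the DNA-binding homeodomain. Both bind Pbx proteins, themselves TALE factors, and Meis or Prep with Pbx can bind DNA as a pair. Meis proteins also work with Hox proteins in patterning the trunk and limbs, whereas Prep proteins are widely expressed. All positions are in the mouse build mm9. No mm9 sequence or gene annotation was used here, so each peak is identified by where it lies, no gene or promoter is given for it, and no sequence is shown.

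The 184 Prep peaks are 6.29% of the 2923 Prep peaks that overlapped no Meis peak (95% Wilson interval 5.47 to 7.23%), and this 6.29% is the share the definition picks out. The 148 Meis peaks are 2.80% of the 5279 Meis peaks that overlapped no Prep peak (2.39 to 3.28%). A further 72 such Meis peaks had only overlapping Prep peaks within 10 kb and fall outside the definition. These intervals cover the number of peaks only. Among peaks that did overlap, the share with a further, separate neighbour was larger, a difference that was not tested. Of the 408 overlapping Prep peaks, 73 had another Meis peak within 10 kb that they did not touch (17.9%, 14.5 to 21.9%). Of the 407 overlapping Meis peaks, 64 had another Prep peak in that range (15.7%, 12.5 to 19.6%), against 220 of the 5279 Meis-only peaks (4.17%, 3.66 to 4.74%). An overlapping peak lies on a peak of the other list, so its further neighbours there are also neighbours of that peak. Within a list, 18.4% of overlapping Meis peaks had another Meis centre within 10 kb and 16.7% of overlapping Prep peaks another Prep centre.

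Neighbours were mostly solitary. Of the 184 Prep peaks, 174 had 1 Meis peak in the window, 6 had 2 and 4 had 3. Meis peaks lay on both sides of 4 Prep peaks. Of the 148 Meis peaks, 139 had 1 of the Prep peaks in the window, 8 had 2 and 1 had 3. The nearest Meis peak lay on the side of higher coordinates for 82 of the 184 Prep peaks (44.6%, 37.6 to 51.8%).

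The centre of the nearest Meis peak was a median of 3.30 kb away, with quartiles of 0.944 and 6.76 kb and a range of 0.185 to 9.93 kb. Distances were crowded at the near end. Within 1 kb there were 51 pairs, and between 1 and 2 kb there were 26. From 2 to 10 kb the 107 pairs spread at 13.4 per kb. Beyond the window, from 10 to 20 kb, Prep-only peaks continued at 12.1 per kb. The density per kb was thus above that of the range outside the window by 2 times or more in the first 2 kb alone.

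**Figure D1:**
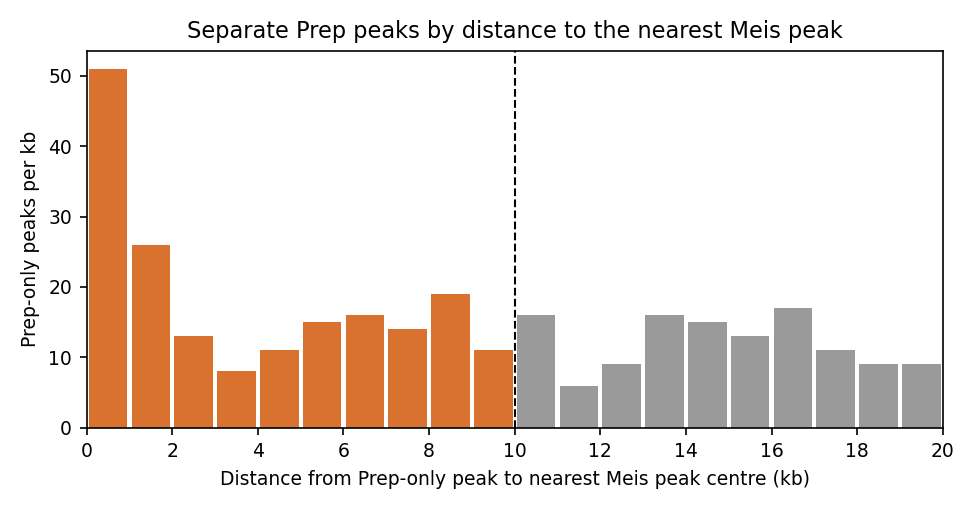
Number of Prep-only peaks (y axis, per kb) by the distance to the nearest Meis peak centre (x axis, kb), in orange up to the 10 kb limit (dashed line) and in grey beyond it. The first bar holds 51 peaks and the second 26, and the bars from 2 to 20 kb hold between 6 and 19.

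Separate and overlapping pairs hardly met in distance. This split is set by the definition, since peak widths limit how far apart the centres of overlapping peaks can be. The 409 overlapping pairs had centres a median of 28.5 bp apart and 232 bp at most, and 376 of them were within 100 bp. The nearest separate pair had centres 185 bp apart, and 5 overlapping pairs were at least that far apart. Between 200 and 300 bp there were 4 separate and 3 overlapping pairs. From 300 to 400 bp there were 11 separate pairs and 0 overlapping ones. The edges of separate peaks were a median of 3.09 kb apart, and 5 pairs had a gap of less than 50 bp, 11 of less than 100 bp and 16 of less than 200 bp.

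The 5 nearest pairs show how closely peaks could lie without touching. On chromosome 5 the Prep peak at 135662961 to 135663136 had a score of 128, and the Meis peak at 135662778 to 135662949 had a score of 9.89, with 11 bp between their edges. Scores are the authors' values from their peak caller, on a scale that is not stated and that differs between the lists. Each is therefore read against its own list, and its place is its rank there by score, counted from 1 at the highest, with tied peaks sharing their mean place. The Prep peak of this pair stood at place 272.5 of 3331 and the Meis peak at 3630 of 5686, so a strong Prep peak lay beside a weaker Meis peak.

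On chromosome 3 the Prep peak at 87981948 to 87982114 (score 147, place 192) lay 239 bp, centre to centre, from the Meis peak at 87982162 to 87982378 (score 12.4, place 1867.5). On chromosome 10 the Prep peak at 39089431 to 39089602 (score 39.4, place 883.5) lay 273 bp from the Meis peak at 39089136 to 39089351 (score 11.03, place 2614.5). On chromosome 17 the Prep peak at 26056822 to 26056994 lay 298 bp from the Meis peak at 26057080 to 26057332. With a score of 284 and place 14 it was the highest Prep peak of the whole set, and its Meis neighbour had a score of 13.7 at place 1403.

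The remaining pair of the 5, on chromosome 8, was of another kind. The Prep peak at 28072043 to 28072368 had a score of 5.25, and the Meis peak 261 bp away, at 28071867 to 28072022, stood at place 54.5 with a score of 35.1. That Meis peak overlapped a different Prep peak, at 28071869 to 28072194, which also had a score of 5.25 and overlapped the first Prep peak. Here 2 calls of the Prep list covered adjoining DNA, and 1 of them reached the Meis peak. Among the 184 Prep peaks, 10 overlapped another Prep peak, whether or not that peak reached a Meis peak, as did 133 of all 3331. Of the 148 Meis peaks, 0 overlapped another Meis peak, and of all 5686 only 8 did.

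Neighbourhoods were thus of different kinds. For 148 Prep peaks (80.4%, 74.1 to 85.5%) at least 1 Meis peak in the window overlapped no listed Prep peak. For the other 36 (19.6%, 14.5 to 25.9%) every Meis peak in the window overlapped another Prep peak, so that the separate Prep peak lay beside a site of both proteins. In all, 35 overlapping Meis peaks lay in the windows. Where the nearest Meis peak was one that overlapped a Prep peak (38 pairs), it was a median of 1.22 kb away (quartiles 0.631 and 5.64 kb). Where it overlapped no listed Prep peak (146 pairs), the median was 4.24 kb (1.03 and 6.88 kb). The nearest Meis peak was an overlapping one in 16 of the 51 pairs up to 1 kb (31.4%) and in 15 of the 107 pairs over 2 to 10 kb (14.0%), against 7.16% of all Meis peaks.

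Beside sites of both proteins, the separate Prep peak was compared with the Prep peak on the Meis site. It scored lower in 24 of the 38 pairs, higher in 12 and equal in 2. Up to 1 kb it was lower in 7 of 16 pairs and higher in 8, and beyond 1 kb lower in 17 of 22 and higher in 4. The median score was 8.21 for the separate peak and 15.3 for the overlapping one. The 38 pairs involve 33 Meis peaks, so some pairs share a site.

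The 5 pairs in which both peaks ranked best, judged by the weaker of the places, were all of this kind. This choice picks high-scoring separate Prep peaks, so their standing against the overlapping Prep peaks is in part set by it. It also picks high-scoring Meis peaks, and overlapping Meis peaks rank high in their list. On chromosome 7 the Prep peak at 125676849 to 125677010 (score 158, place 155) lay 373 bp from the Meis peak at 125676458 to 125676655 (score 29.2, place 108). The Prep peak that overlapped this Meis peak had a score of 22.3, so the separate peak was the stronger. On chromosome 11 the Prep peak at 85166577 to 85166745 (score 87.3, place 496) lay 422 bp from the Meis peak at 85166138 to 85166340 (score 17.3, place 642.5), where the overlapping Prep peak had a score of 86.0. These Prep peaks were almost equal in score.

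On chromosome 3 the Prep peak at 108086816 to 108086996 (score 68.9, place 592) lay 1.37 kb from the Meis peak at 108085442 to 108085624, which had a score of 56.0 and held place 9 of the Meis list. The Prep peak on that Meis peak had a score of only 5.25. The remaining pairs shared a Meis peak on chromosome 7, at 75274835 to 75275050 (score 14.9, place 1072.5). Prep peaks at 75273970 to 75274166 (score 102) and at 75274013 to 75274268 (score 86.0) lay 0.875 and 0.802 kb from it and overlapped each other. The strongest Prep calls of that stretch thus lay to one side of the Meis site, whose own Prep peak had a score of 5.25.

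Prep peaks with a Meis neighbour had middling scores. Their scores ran from 5.25 to 284 with a median of 10.5 (quartiles 6.51 and 30.9). The other 2739 Prep-only peaks had a median of 11.8 (6.57 and 50.4), and the 408 overlapping Prep peaks one of 7.88 (5.91 and 13.2). Of the 184, 88 lay in the highest-scoring 50% of the Prep list, which is 47.8% (40.7 to 55.01%), where 49.3% of all Prep peaks lie because tied peaks at its lower limit fall outside it. The same share was 52.0% (50.1 to 53.9%) for other Prep-only peaks and 31.9% (27.5 to 36.5%) for overlapping ones. In the highest-scoring 10%, which holds 10% of all Prep peaks, there were 14 of the 184 (7.61%, 4.59 to 12.4%). The highest-scoring 25% held 40 of them (21.7%, 16.4 to 28.2%), against 24.9% of all Prep peaks. The intervals of the neighbouring and the other Prep-only peaks overlapped in each of these parts of the list.

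Meis peaks with a Prep neighbour sat lower in their list. Their scores ran from 8.59 to 45.8 with a median of 10.2 (quartiles 8.96 and 11.6). The other 5131 Meis-only peaks had a median of 10.7 (9.30 and 13.3), and the overlapping Meis peaks one of 14.3 (10.7 and 22.1). The higher-scoring 50% of Meis peaks included 54 of the 148 (36.5%, 29.2 to 44.5%), where 49% of all Meis peaks lie for the same reason. The share was 47.3% (46.0 to 48.7%) for other Meis-only peaks and 74.9% (70.5 to 78.9%) for overlapping ones. In the highest-scoring 25%, with 25% of all Meis peaks, there were 16 of the 148 (10.8%, 6.76 to 16.8%). In the highest-scoring 10%, with 9.88% of all Meis peaks, there were 3 of the 148 (2.03%, 0.692 to 5.79%), against 8.03% of other Meis-only peaks and 36.1% of overlapping ones.

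The same can be read in successive slices of 25% of the lists. In order of score from the highest slice, 16 of 1201, 38 of 1281, 35 of 1343 and 59 of 1454 Meis-only peaks were neighbours, or 1.33% (0.822 to 2.15%), 2.97% (2.17 to 4.05%), 2.61% (1.88 to 3.60%) and 4.06% (3.16 to 5.20%). The interval of the highest slice lay below that of the lowest, and the lower 3 slices overlapped. For Prep-only peaks the shares were 5.13, 6.55, 6.74 and 6.88%, with intervals that overlapped throughout.

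**Figure D2:**
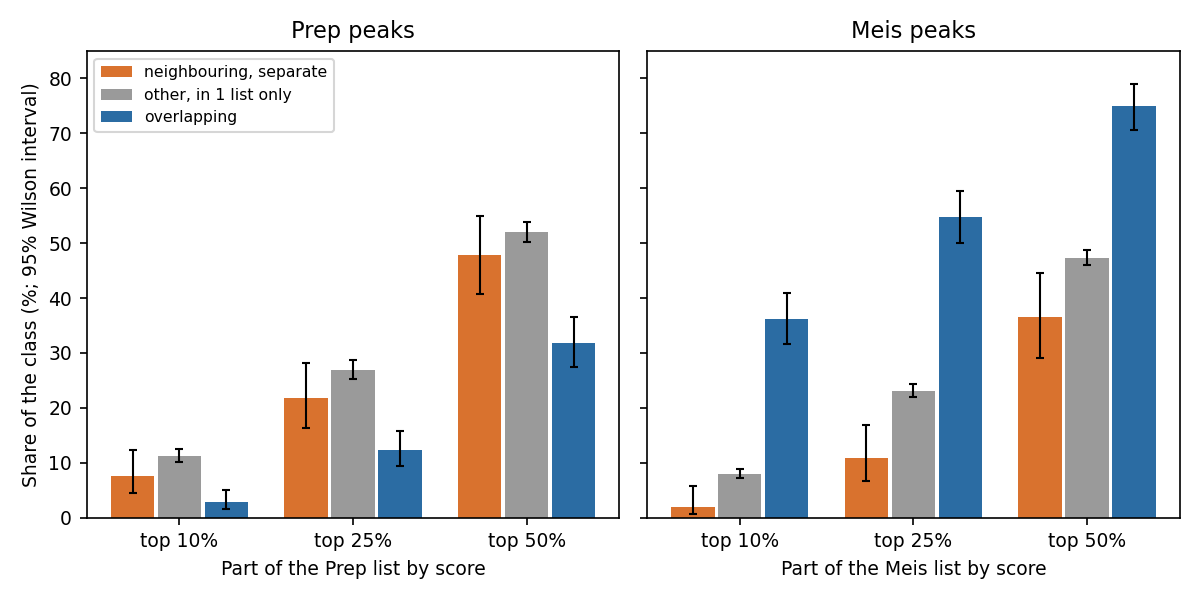
Share of each class of peaks (y axis, percent) that lies in the highest-scoring 10, 25 and 50% of its own list (x axis), for Prep on the left and Meis on the right, with 95% Wilson intervals as bars. Neighbouring Meis peaks reach 2.03, 10.8 and 36.5%, below the overlapping Meis peaks at 36.1, 54.8 and 74.9%, while neighbouring Prep peaks at 7.61, 21.7 and 47.8% lie above the overlapping Prep peaks at 2.94, 12.3 and 31.9%.

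The 3 highest Prep peaks of the set had Meis neighbours outside the highest-scoring 10% of the Meis list. That part holds only 3 of the 148 neighbouring Meis peaks. The Meis neighbour of the highest Prep peak was in the highest-scoring 25% of its list. After the peak on chromosome 17 named above came a Prep peak on chromosome 7 at 4817807 to 4817973 (score 217, place 47). Its Meis neighbour, 6.62 kb away at 4811152 to 4811393, had a score of 10.3 at place 3159.5. The next lay on chromosome 5 at 121038631 to 121038788 (score 197, place 73), and the Meis peak 9.90 kb away at 121028700 to 121028911 had a score of 8.66 at place 5242.

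The 3 highest Meis peaks of the set, in turn, had Prep neighbours near the middle of the Prep list. The Meis peak on chromosome 2 at 17970380 to 17970575 held place 19 with a score of 45.8, and the Prep peak 927 bp away at 17969400 to 17969701 had a score of 8.54 at place 1960. The Meis peak on chromosome 7 at 25176198 to 25176390 held place 121 with a score of 28.5, and its Prep neighbour at 25184758 to 25185022, 8.60 kb away, had a score of 11.8. Another Meis peak, at 25180022 to 25180214 with a score of 8.61, lay between them and was nearer to that Prep peak, at 4.77 kb. The Meis peak on chromosome 5 at 142758027 to 142758206 held place 190 with a score of 24.8, and its Prep neighbour at 142766761 to 142766981, 8.75 kb away, had a score of 13.8.

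Over all 184 nearest pairs, Prep and Meis scores were hardly related, with a Spearman coefficient of 0.02 across pairs. It was -0.08 across the 409 overlapping pairs. Both coefficients describe pairs drawn from the same libraries and are given with no p. In 42 of the 184 separate pairs (22.8%, 17.4 to 29.4%) both peaks were in the higher 50% of their lists, and in 59 (32.1%, 25.7 to 39.1%) both were in the lower. Prep alone was in the higher part in 46 (25%) and Meis alone in 37 (20.1%).

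Among the overlapping pairs, Meis alone was in the higher 50% in 218 of 409 pairs (53.3%, 48.5 to 58.1%), Prep alone in 43 (10.5%), both in 87 (21.3%) and neither in 61 (14.9%). The Meis peak held the better relative place in 321 overlapping pairs (78.5%, 74.2 to 82.2%) and in 80 separate pairs (43.5%, 36.5 to 50.7%). Expressed as places in percent of the list, the Prep peak stood a median of 38.4 points behind its Meis partner in overlapping pairs and differed by -6.01 points, which puts it ahead, in separate ones. The lopsided ranking of the overlapping pairs was thus not seen over all separate pairs. The median difference was 18.9 points (quartiles -8.73 and 59.3) where the nearest Meis peak overlapped another Prep peak and -15.2 points (-33.6 and 16.1) where it did not. The Meis peaks of the first kind are themselves part of overlapping pairs, so this split carries their ranking with it.

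**Figure D3:**
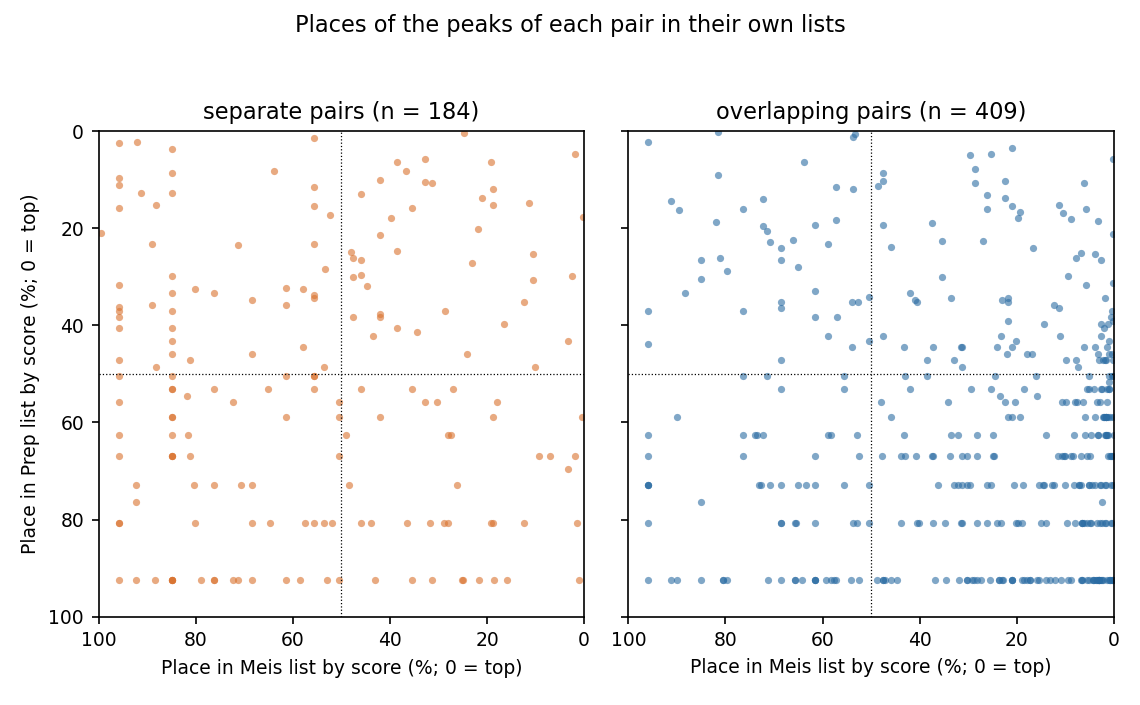
Each point is a pair, placed by the rank of its Meis peak (x axis) and its Prep peak (y axis) in percent of the list, with the top of each list at the right and at the top. Overlapping pairs (right panel, 409) gather at the lower right, where 218 have only Meis in the higher 50%, while the 184 separate pairs (left panel) have 37 there.

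Within the separate pairs, scores were only weakly related to distance. Across the 184 pairs the Spearman coefficient with centre distance was -0.09 for the Prep score and -0.14 for the Meis score. In the 23 pairs with centres up to 0.5 kb apart, Prep scores had a median of 55.8 with quartiles of 5.58 and 121, and 15 of the 23 Prep peaks were in the higher 50% of their list. In the classes from 0.5 to 1, 1 to 2, 2 to 5 and 5 to 10 kb the Prep medians were 10.2, 13.8, 10.6 and 9.85. The nearest class had the highest median and the lowest first quartile of the 5 classes. Its scores were spread from 5.25 to 284, and the 95% order-statistic interval of its median was 5.91 to 114. The class was set with the scores known. When the distance was taken between edges, the class up to 0.5 kb held 40 pairs with a median Prep score of 17.7.

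Width moved with score in these Prep peaks, as it did in overlapping ones. The Spearman coefficient of Prep width with score was -0.85 across the 184 pairs and -0.77 across the 409 overlapping pairs. The median Prep width was 191 bp in the nearest class against 253 bp from 5 to 10 kb. With every peak set to 200 bp, the class held 24 pairs with a median Prep score of 49.9. From the nearest class to the farthest, Meis scores had medians of 11.4, 10.9, 10.4, 9.75 and 10.3. As places in percent of the list, the Meis medians were 42.0, 47.6, 54.5, 66.6 and 55.6% and the Prep medians 21.4, 51.8, 43.6, 50.9 and 53.1%.

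**Figure D4:**
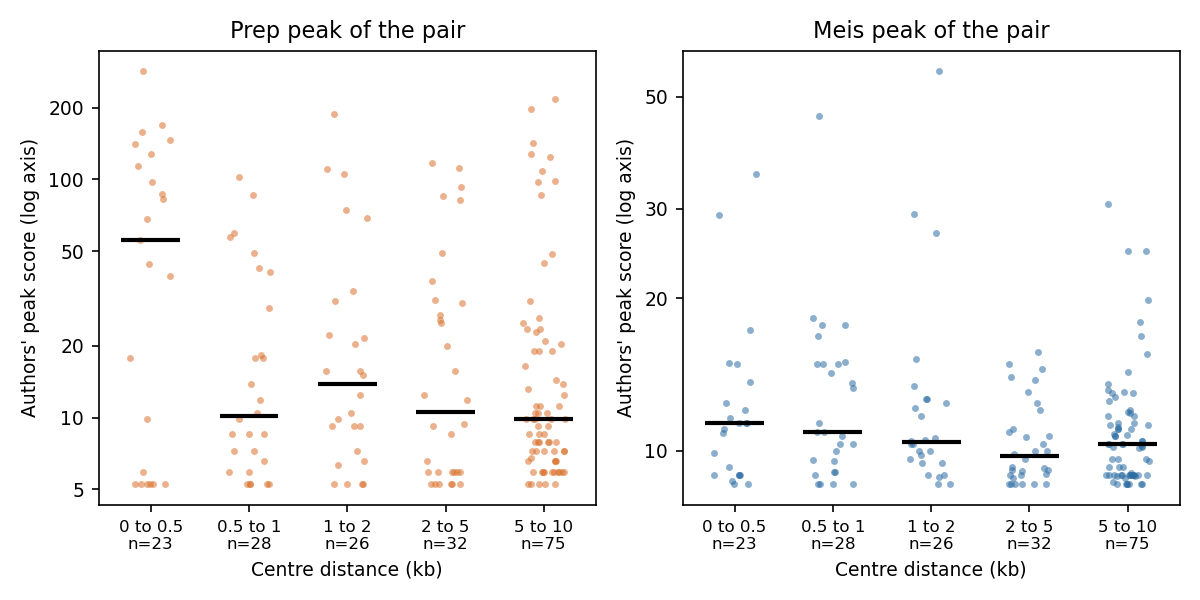
Authors' peak scores on log axes (y) of the Prep peak (left) and the Meis peak (right) of the 184 nearest separate pairs, by centre distance in kb (x); each point is a pair and each black line a median. Prep scores up to 0.5 kb spread from 5.25 to 284 with a median of 55.8, while the other Prep medians lie between 9.85 and 13.8 and the Meis medians between 9.75 and 11.4.

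Over all distances, median widths differed by at most 18 bp from those of the other classes of the same list. Prep neighbours had a median width of 250 bp (quartiles 197 and 290 bp), other Prep-only peaks 239 bp and overlapping Prep peaks 268 bp. Meis neighbours had a median of 208 bp (187 and 228 bp), other Meis-only peaks 210 bp and overlapping Meis peaks 197 bp.

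Peaks of the same list were also close to some of these sites. Of the 184 Prep peaks, 61 had another Prep peak centre within 10 kb (33.2%), against 17.1% of all Prep peaks. This count is in part set by the definition, since each of the 36 Prep peaks beside sites of both proteins has a Prep peak near by construction. Of the other 148, 25 had another Prep peak within 10 kb (16.9%, 11.7 to 23.7%), close to the 16.1% of other Prep-only peaks. For 19 of the 148 that peak was itself one of the 184. Of the 148 Meis peaks, 22 had another Meis peak within 10 kb (14.9%, 10.03 to 21.5%), against 13.8% of all Meis peaks. In stretches where 4 or more Meis peaks follow each other at gaps no larger than 10 kb, 78 Meis peaks lie, 0 of them among the 148. Those are 1.37% of all Meis peaks. Prep stretches defined alike held 29 Prep peaks (0.871% of the list), 7 of them among the 184 (3.80%). All 7 belong to the 36 beside sites of both proteins, which have a further Prep peak by construction.

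Chained together where centres lay up to 10 kb apart, the 332 peaks formed 169 loci. Both proteins were present in 138 loci, with a median length of 4.88 kb. The other 31 held Prep peaks alone, beside a site of both proteins. Most loci were simple, with 122 of 2 peaks, 16 of 3 and 3 of 4, and 28 of a single peak. The simple pairs were split evenly by order along the chromosome, with Meis first in 61 loci and Prep first in 60. Of the 17 loci with both proteins and 3 or more peaks, 9 had several Prep peaks and 1 Meis peak, and 8 had several Meis peaks and 1 Prep peak.

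The 5 loci with most peaks were taken as examples, ties going to the higher Prep score. The first, on chromosome 5 at 143579428 to 143584767, had a Prep peak with a score of 81.6 (place 530) followed by 3 Meis peaks with scores of 12.1, 11.6 and 9.65, 2.33 to 5.15 kb away. The second, on chromosome 17 at 27140710 to 27150148, had 3 Meis peaks with scores of 8.96, 8.96 and 8.61 around a Prep peak with a score of 17.7. In both, a single Prep peak of the higher part of its list met several Meis peaks. On chromosome 5 the Meis peaks at places 2012.5 and 2268.5 were also in the higher part of their list, and that at place 3895 was not. On chromosome 17 the Meis peaks held places 4832, 4832 and 5450.5, all in the lower part.

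The other 3 loci held more Prep than Meis peaks. On chromosome 7, at 38976496 to 38986239, there were 3 Prep peaks with scores of 6.57, 5.25 and 6.35 and a Meis peak with a score of 8.62, so that all were weak. Also on chromosome 7, at 75273970 to 75274491, lay the Prep peaks described above with another of score 8.54, within 0.522 kb. On chromosome 10, at 81059484 to 81069019, a Meis peak with a score of 10.3 was followed by Prep peaks with scores of 85.4 and 10.5.

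**Figure D5:**
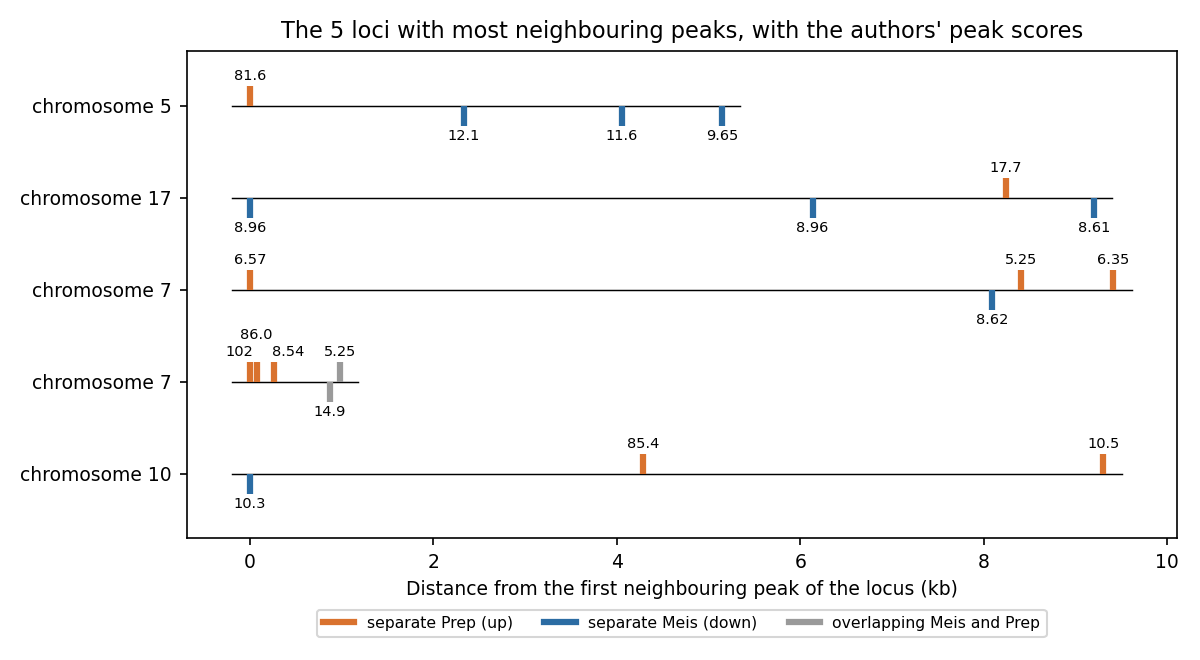
Peak centres along the 5 loci with most neighbouring peaks (x axis, kb from the first such peak), Prep upward in orange and Meis downward in blue, with an overlapping pair in grey and each peak's score beside it. The loci on chromosomes 5 and 17 have 3 Meis peaks and 1 Prep peak each, and the others have more Prep than Meis peaks.

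The sites were spread over the genome. Neighbouring Prep peaks occurred on all chromosomes with Prep peaks other than Y, which has 0 Meis peaks, so that none of its 6 Prep peaks could have a neighbour. Chromosome 2 had 23 of its 236 Prep-only peaks among them (9.75%, 6.58 to 14.2%) and chromosome 7 had 22 of 243 (9.05%, 6.05 to 13.3%). On chromosome 6 there were 3 of 110 (2.73%, 0.932 to 7.71%) and on the X chromosome 1 of 72 (1.39%, 0.246 to 7.46%). The X chromosome has only 40 Meis peaks that could be neighbours, against 467 on chromosome 2. Chromosome 6 has 333. Whether the number of Meis peaks bears on these shares was not tested. The chromosomes named are those with the highest shares and, other than Y, the lowest, and their intervals overlap.

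The limit of 10 kb falls in a range with no break. The 3 Prep peaks just inside it were 9.66, 9.90 and 9.93 kb from a Meis peak, with Prep scores of 86.0, 197 and 20.4. The 3 just outside were 10.11, 10.14 and 10.19 kb away, with Prep scores of 26.3, 152 and 127. A pair of these 6 lie next to each other on chromosome 5. The Prep peak at 121038631 to 121038788 is inside the limit and the Prep peak at 121038906 to 121039085 is outside it, and both have the same Meis peak as nearest neighbour.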

How the data were processed

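Reads were aligned with BWA to mm9, per the submitters' processing notes. The deposited lists give a position and a score for each peak, per the file headers, and the peak names hold the word pics. How the caller was set, whether it used the input and what was filtered was not stated in these sources. The scores are not whole numbers, and how they relate to read counts was not stated. Read depth is unknown, so none is given for any peak. Signal below the lowest deposited score, 8.51 for Meis and 5.03 for Prep, is not listed.

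Starts were raised by 1, on the assumption that the lists count from 0. Peaks with at least 1 bp in common were called overlapping. Distances run between centres. Shares carry 95% Wilson intervals, and medians in the closing section an order-statistic interval. Peaks are not replicates and no test was run. Named peaks are the 5 nearest pairs, the 5 with the best weaker place, the 3 highest of each list, the 5 largest loci and the 3 on each side of the limit. Other named peaks, and the class up to 0.5 kb, were picked with their values known. The members and lists were chosen with earlier results of these data known. The planned comparison of genes and motifs was not run for want of an mm9 reference. Alternatives were 8 other settings and 1 added later. Python 3.11.15, numpy 2.4.6, pandas 2.3.3 and scipy 1.17.1 were used, and the procedure was tested on simulated lists. Overlapping pairs were planted there with about the same centre. Separate pairs were planted neither up to 0.5 kb apart nor in the last kb below the limit, so those distances were not checked.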

Additional observations from a re-analysis of the deposited data

How the results depend on the processing

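Of 76 recomputed values under 9 alternatives, 55 stayed within 1.5 times a count or within the 95% interval of a median. Distances between edges, treating peaks within 200 bp as not separate, a width of 200 bp and autosomes only moved none beyond those limits. Meis-only neighbours alone, an alternative chosen after seeing the data, also moved none. Still, pairs within 1 kb fell from 51 to 35 both with peaks within 200 bp not separate and with Meis-only neighbours alone. In both, the median distance rose from 3303 to 4242 bp. The class of pairs up to 0.5 kb, not among the 76 values, held 40 pairs by edge distance, 8 with the limit of 200 bp, 11 in the higher-scoring 50% and 14 with equal lengths, and its median Prep score ran from 17.7 to 87.3. The window sets the size of the set. With 5 kb there were 109 Prep and 83 Meis peaks in 99 loci, with a median distance of 1067 bp, and with 20 kb there were 305 and 259 in 269 loci, with 7596 bp. In the highest-scoring 50% of each list, 44 Prep and 33 Meis peaks in 39 loci were left, with 19 pairs within 1 kb, a median distance of 1361 bp, median scores of 41.7 for Prep and 12.1 for Meis and a median Prep width of 196.5 bp. With lists of equal length there were 111 Prep and 78 Meis peaks in 101 loci, 33 pairs within 1 kb and a median Meis score of 11.6. Both cut the lists by score, so fewer and higher peaks remain by construction. No paired analysis was possible because there is 1 library per antibody and the values come from no test. A peak counted as separate may have signal of the other protein below the lowest listed score.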
